A study of Mus musculus with 6 samples.

Results

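Genes of the tumor necrosis factor (TNF) superfamily, their receptors and intracellular adaptors were examined in hearts of mice infused with angiotensin II (Ang II). The hearts came from mice with and without tectochrysin (Tec), a plant flavonoid. Members were taken by symbol from the deposited expression table: every protein-coding or processed-transcript gene whose symbol starts with Tnfsf or Tnfrsf and a number, the Traf genes, and Tnf, Tradd and Ripk1. This gave 41 of the 30914 genes in the table, made up of 12 ligands, 20 receptors and 9 adaptors. Genes of the family that carry other symbols, such as Ltbr, Cd40 and Fas, fall outside this rule and are described separately.

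Both groups were male wild-type C57BL/6J mice, 8 weeks of age at the start. They received Ang II from an implanted osmotic pump at 1 μg/kg/min for 4 weeks. The Ang II group (n = 3 hearts) received no tectochrysin. The Ang II + Tec group (n = 3 hearts) was additionally injected intraperitoneally with 5 mg/kg tectochrysin each day over the last 2 weeks. No heart without Ang II was sequenced, so each comparison is between infused animals and none measures the effect of Ang II itself. The values are fragments per kilobase of transcript, scaled to the mapped fragments of the library (FPKM), from poly(A) RNA of heart tissue. This unit corrects for gene length and library size and therefore allows levels to be compared between genes.

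Ligands of the TNF superfamily are membrane-bound or shed trimers that cluster receptors on the surface of the same or a neighboring cell. Receptors with a cytoplasmic death domain, such as Tnfrsf1a, recruit Tradd and Ripk1 and can pass the signal either to NF-κB or to caspases and the necroptosis kinases, whereas receptors without one, such as Tnfrsf1b, bind TRAF proteins directly. In the heart, TNF and its relatives are studied for their part in inflammation, cardiomyocyte loss and fibrosis under pressure overload or neurohumoral stress.

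The libraries were not uniform within groups. A principal component analysis gave a leading axis with 68.7% of the variance, on which Ang II replicate 3 had a score of 19.2 and the Tec hearts had 28.6, 2.39 and 27.0, against -31.2 and -46.0 for the remaining Ang II hearts. Mitochondrially encoded transcripts took 41.3%, 40.1% and 48.9% of the summed FPKM in the Ang II hearts and 51.3%, 49.6% and 52.5% in the Ang II + Tec hearts. Cardiomyocyte markers were abundant in every library (Myh6, the cardiac α-myosin heavy chain, 678 to 1491 FPKM). Atrial markers were not: Myl7, Myl4 and Sln did not exceed 1.58 FPKM in Ang II replicate 3 and Ang II + Tec replicates 1 and 3. In the remaining hearts each was at 67.08 FPKM or more. Summed adipocyte markers were at 2.73, 9.93 and 0.49 FPKM with Ang II and 0.15, 62.89 and 1.41 FPKM with Tec. The part of atrial tissue or fat in the group differences was not tested. Because of its place on the leading axis, Ang II replicate 3 is left out beside the results that rest on it. Because these are bulk tissues, fewer cells of a type and less RNA per cell cannot be told apart.

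Most members were scarce. Of the 41 genes, 18 stayed under 0.5 FPKM in all 6 libraries, among them 8 of 12 ligands, 9 of 20 receptors and 1 of 9 adaptors, and 11 genes were listed at 0 in at least 1 library. Transcripts of Tnfrsf12a, Tnfrsf1a and Tnfsf12 dominated the family. Together they made up 65.3%, 68.3% and 58.3% of the members' summed FPKM in Ang II hearts and 66.4%, 64.2% and 57.5% in Ang II + Tec hearts. Among 15 ligand and receptor pairs formed by the members, the pair of Tnfsf12 and Tnfrsf12a was the single one with both partners at or above 0.5 FPKM in every library.

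**Figure D1:**
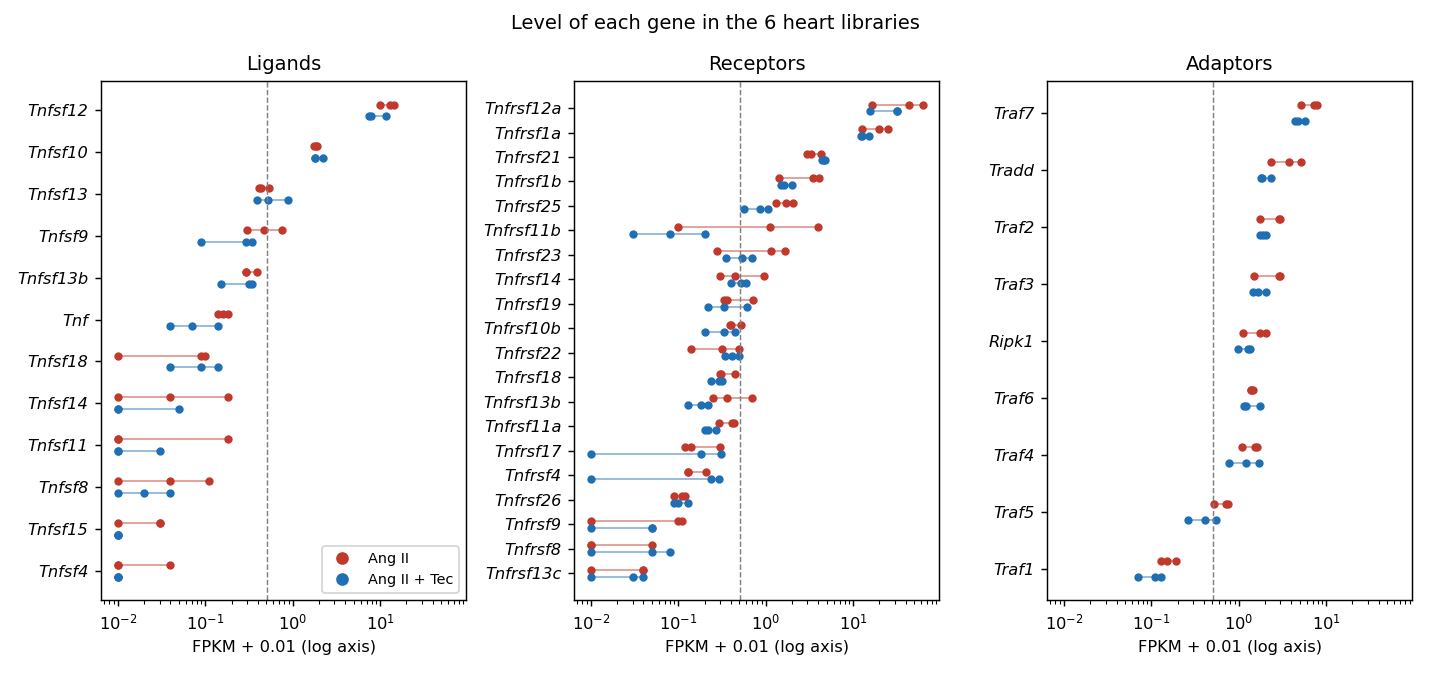
FPKM plus 0.01 on a log axis for the 12 ligands, 20 receptors and 9 adaptors, ordered by mean, with 1 point per heart and a line across the range of each group (n = 3). The dashed line marks 0.5 FPKM; Tnfrsf12a, Tnfrsf1a and Tnfsf12 lie furthest to the right, and 18 genes stay left of the line in all 6 libraries.

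Differences between the groups were tested with limma on log2(FPKM + 1) for genes that reached 0.5 FPKM in at least 3 of the 6 libraries, with Benjamini-Hochberg adjustment over all 13089 such genes. A gene was called when its adjusted p was under 0.05 and its log2 fold change was at least 1 in size. On this scale fold changes of genes with low FPKM are understated. The filter kept 18 members (3 ligands, 7 receptors and 8 adaptors), each of which reached 0.5 FPKM in at least 1 Ang II + Tec heart. Traf5 reached it in 3 Ang II hearts and 1 Ang II + Tec heart, so its Ang II hearts were enough to pass.

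No member was called, against 21 of the 13089 genes (0.16%), and no member had an adjusted p under 0.05, against 0.183% of all genes. At an unadjusted limma p under 0.05 there were 3 members, Tnfrsf25 and Tradd with lower and Tnfrsf21 with higher levels in the Ang II + Tec hearts. That is 16.7% of the tested members, beside 18.6% of all tested genes (16.5% lower and 2.09% higher). The count changed with the libraries and the model. There were 9 members with the replicate number as a block, beside 25.3% of all genes, and 13 with library weights, beside 46.4%. Without Ang II replicate 3 there were 13, beside 43.7%, and without Ang II + Tec replicate 2 there were 5, beside 17.7%. Leaving out any other library gave 1 member, beside 7.4%, 8.96%, 9.46% and 9.1% without Ang II replicates 1 and 2 and Ang II + Tec replicates 1 and 3. Without the filter 5 of 41 members had such a p, beside 11.6% of 27760 genes. The mean on the log2 scale was lower with Tec for 15 of 18 members (83.3%), and the same held for 80% of all genes. Their median log2 fold change was -0.30 and that of all genes -0.17. The median was 0.05 for ligands, -0.44 for receptors and -0.27 for adaptors. The general downward shift depended on scaling. When libraries were rescaled by their median ratio, the median of all genes moved from -0.17 to 0.0020 and that of the members to -0.16, with 13 of 18 members lower beside 49.6% of all genes.

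Across all 41 genes without a filter, the mean FPKM was lower with Tec for 33, higher for 7 and equal for 1. On the log2 scale 34 of 41 (82.9%) were lower, beside 67% of the 27760 genes detected in any library. The values of the groups did not overlap for 3 lower members (Tnfrsf25, Tnfrsf13b and Tnfrsf11a), beside 11.6% of all detected genes, and for 1 higher member (Tnfrsf21), beside 2.73%. With 3 hearts against 3 the smallest p an exact permutation test allows is 0.1, so complete separation of a single gene cannot pass 0.05 in such a test.

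**Figure D2:**
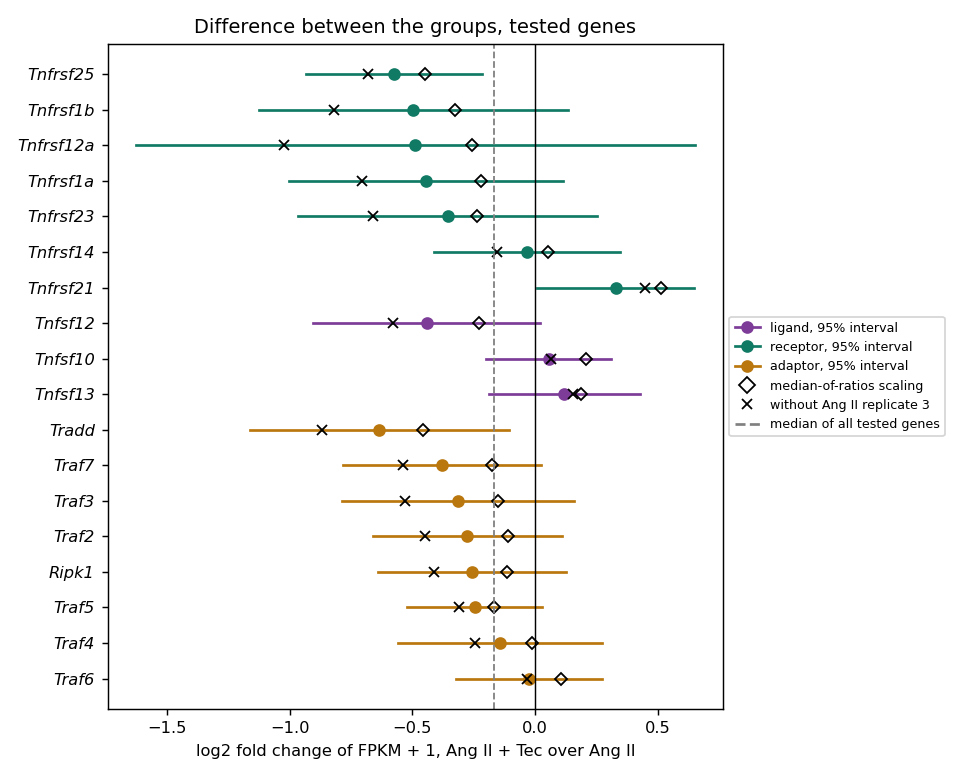
Difference in log2(FPKM + 1), Ang II + Tec over Ang II, for the 18 tested members (points, with 95% limma intervals; n = 3 per group), beside the values after median-of-ratios scaling (diamonds) and without Ang II replicate 3 (crosses). The dashed line is the median of all tested genes at -0.17; the intervals of Tnfrsf25 and Tradd lie below 0 and that of Tnfrsf21 above it.

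Among the ligands, Tnfsf12, which encodes the TWEAK cytokine, was the most abundant (chromosome 11, 69686250 to 69695849, minus strand). It was measured at 12.82, 14.45 and 9.98 FPKM with Ang II and 7.44, 11.57 and 7.81 FPKM with Tec. Ang II + Tec replicate 2 lay above the lowest Ang II heart, so the groups overlapped. The means were 12.4 ± 2.26 and 8.94 ± 2.29 FPKM (SD, n = 3), with a log2 fold change of -0.44 (SE 0.20, limma adjusted p = 0.280). Tnfsf12 is followed on the same strand by Tnfsf13, which encodes APRIL, and the readthrough gene Tnfsfm13 spans both, so reads may have been divided among these annotations. The summed FPKM of the locus was 17.04, 19.96 and 13.91 with Ang II and 11.32, 15.59 and 11.7 with Tec, and the log2 fold change of the sum was -0.37 (limma adjusted p = 0.292).

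The other ligands were low, and all but Tnfsf10 and Tnfsf13 were under the filter. Tnfsf10, the apoptosis-inducing ligand TRAIL, had a narrow range of 1.75 to 2.2 FPKM over the 6 hearts and a log2 fold change of 0.05 (limma adjusted p = 0.775). Tnfsf13 had group means of 0.450 and 0.587 FPKM. Tnf itself was measured at 0.13, 0.17 and 0.15 FPKM with Ang II and 0.13, 0.06 and 0.03 FPKM with Tec. Ang II + Tec replicate 1 equalled the lowest Ang II heart, while the remaining Tec hearts lay below it. All 6 values were under the filter and Tnf was not tested. Tnfsf14, which encodes LIGHT, was listed at 0.03, 0.17 and 0 FPKM with Ang II and at 0.04, 0 and 0 FPKM with Tec. It was therefore at 0 in 3 of 6 libraries, and its mean rested mainly on Ang II replicate 2. Tnfsf9, the ligand of the costimulatory receptor Tnfrsf9, averaged 0.497 ± 0.227 and 0.230 ± 0.132 FPKM (SD, n = 3). Tnfsf13b, the B cell survival factor BAFF, averaged 0.313 and 0.260 FPKM. The remaining 5 ligands, Tnfsf18, Tnfsf11, Tnfsf8, Tnfsf15 and Tnfsf4, did not exceed 0.17 FPKM in any library.

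Of the receptors, Tnfrsf12a had the highest level of all members. It encodes Fn14, the receptor of TWEAK, which lacks a death domain and signals through TRAF proteins (chromosome 17, 23675445 to 23677468, minus strand). The Ang II hearts held 43.6, 62.75 and 16.6 FPKM and the Ang II + Tec hearts 31.79, 32.08 and 15.72 FPKM. In each group replicate 3 was low, and the span among the Ang II hearts was wider than the distance between the group means of 41.0 ± 23.2 and 26.5 ± 9.36 FPKM (SD, n = 3). The log2 fold change was -0.49 with a 95% interval of -1.63 to 0.65 (limma adjusted p = 0.553). Without Ang II replicate 3 it was -1.02 with a limma adjusted p of 0.0457. Tnfrsf12a was the single member called there, 5.56% of the tested members beside 4.26% of all tested genes. Without Ang II replicate 2 its log2 fold change was -0.09. The ratio of Tnfrsf12a to Tnfsf12 was 3.40, 4.34 and 1.66 in the Ang II hearts and 4.27, 2.77 and 2.01 in the Ang II + Tec hearts, so the ranges of the groups overlapped. Atrial cardiomyocyte markers summed to 6205, 10253 and 256 FPKM with Ang II and to 906, 5056 and 128 FPKM with Tec. Nppa made up most of each sum, and for it replicate 3 was again the lowest in each group. It held 5568, 9456 and 256 FPKM with Ang II and 906, 3489 and 125 FPKM with Tec. Myl7, another marker of the list, was at 419, 332 and 0 FPKM with Ang II and 0, 1040 and 1.58 FPKM with Tec. For Myl7, Myl4 and Sln the lowest Tec heart was replicate 1, not replicate 3. The part of the atrial share in the level of Tnfrsf12a was not tested.

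Tnfrsf1a, the death-domain receptor of TNF that is present on most cell types, was second among the receptors (chromosome 6, 125349362 to 125361874, plus strand). Its values were 19.81, 25.03 and 12.48 FPKM with Ang II and 12.25, 15.15 and 12.54 FPKM with Tec. Ang II replicates 1 and 2 exceeded every Tec heart, while replicate 3 lay among the Tec hearts. The means were 19.1 ± 6.30 and 13.3 ± 1.60 FPKM (SD, n = 3) and the log2 fold change was -0.44 (SE 0.24, limma adjusted p = 0.327). Tnfrsf1b, the TNF receptor without a death domain that is found mainly on leukocytes and endothelium, was measured at 3.48, 4.03 and 1.42 FPKM with Ang II and 1.49, 1.99 and 1.61 FPKM with Tec (log2 fold change -0.50, limma adjusted p = 0.330). Here too Ang II replicates 1 and 2 exceeded every Tec heart, and replicate 3 was the lowest of all. Tnfrsf1a exceeded Tnfrsf1b in every heart, 5.69 to 8.79 times with Ang II and 7.61 to 8.22 times with Tec.

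Tnfrsf25 and Tnfrsf21, both receptors with a death domain, were the tested members whose groups did not overlap, in opposite directions. Among all tested genes 18.9% had no overlap with lower and 2.9% with higher values in Tec. Tnfrsf25, known as DR3 and best studied on T cells, was measured at 2.06, 1.72 and 1.32 FPKM with Ang II and 0.55, 1.04 and 0.85 FPKM with Tec (chromosome 4, 152115934 to 152120119, plus strand). Every Tec heart lay below every Ang II heart. The means were 1.70 ± 0.370 and 0.813 ± 0.247 FPKM (SD, n = 3) and the log2 fold change was -0.57 (SE 0.15, 95% interval -0.93 to -0.22, limma adjusted p = 0.201). Its ligand gene Tnfsf15 was listed at 0 in 4 of 6 libraries and at 0.02 FPKM in the others. T and NK cell markers summed to 0.55 to 0.70 FPKM with Ang II and to 0.43 to 0.48 FPKM with Tec, and none of the 9 genes reached the filter. The markers did not share a direction: Cd3d, Cd8a and Cd2 had higher means with Tec and the remaining ones lower means. The part of such cells in the level of Tnfrsf25 was not tested.

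Tnfrsf21, known as DR6, was measured at 2.96, 3.27 and 4.26 FPKM with Ang II and 4.38, 4.63 and 4.8 FPKM with Tec (chromosome 17, 43016555 to 43089189, plus strand). Each Tec heart lay above each Ang II heart, with a gap of 4.26 to 4.38 FPKM between the nearest hearts. The means were 3.50 ± 0.679 and 4.60 ± 0.211 FPKM (SD, n = 3), and the log2 fold change was 0.33 (SE 0.14, 95% interval 0.01 to 0.65, limma adjusted p = 0.264). Its log2 fold change was 0.51 after median-of-ratios scaling and 0.53 after quantile normalization, with adjusted p of 0.287 and 0.278. The ratio of Tnfrsf21 to Tnfrsf1a was 0.149, 0.131 and 0.341 in the Ang II hearts and 0.358, 0.306 and 0.383 in the Ang II + Tec hearts, where Ang II replicate 3 again fell within the Tec range.

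Promoter sequence is shown for the most abundant receptor and for both receptors with separated groups, so that the start regions of genes with different values can be compared. Each run holds 250 bases before and 50 bases after the gene start from the RefSeq table of build GRCm38.p6, on the strand of the gene, with GC boxes (GGGCGG or its complement CCGCCC) in capitals. The regions are chr17:23677400-23677699 on the minus strand for Tnfrsf12a, chr4:152115684-152115983 on the plus strand for Tnfrsf25 and chr17:43016305-43016604 on the plus strand for Tnfrsf21.
Tnfrsf12a: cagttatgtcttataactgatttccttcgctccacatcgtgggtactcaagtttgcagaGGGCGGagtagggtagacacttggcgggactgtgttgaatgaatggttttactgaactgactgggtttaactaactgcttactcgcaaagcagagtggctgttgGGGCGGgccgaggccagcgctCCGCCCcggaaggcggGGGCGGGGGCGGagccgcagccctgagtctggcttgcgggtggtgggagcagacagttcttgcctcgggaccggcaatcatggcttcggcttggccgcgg
Tnfrsf25: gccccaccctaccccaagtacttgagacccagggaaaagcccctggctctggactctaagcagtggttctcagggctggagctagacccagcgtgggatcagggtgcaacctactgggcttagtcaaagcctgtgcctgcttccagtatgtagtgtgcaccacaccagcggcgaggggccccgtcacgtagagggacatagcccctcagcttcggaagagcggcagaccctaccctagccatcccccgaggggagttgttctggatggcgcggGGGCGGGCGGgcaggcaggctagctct
Tnfrsf21: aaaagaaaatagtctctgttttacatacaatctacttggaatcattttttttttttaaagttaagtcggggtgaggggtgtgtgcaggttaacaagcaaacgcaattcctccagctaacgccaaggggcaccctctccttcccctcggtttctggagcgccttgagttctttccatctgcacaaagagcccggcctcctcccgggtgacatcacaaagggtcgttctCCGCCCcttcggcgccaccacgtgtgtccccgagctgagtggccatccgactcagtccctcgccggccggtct

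The Tnfrsf12a window held 5 GC boxes, that of Tnfrsf25 held 2 that overlap each other, and that of Tnfrsf21 held 1. Promoters were present for 33 of the 41 members. A GC box on either strand occurred in 18 of these 33 (54.5%) and in 35.9% of all 27025 promoters of this length. TATAAA occurred in 5 of 33, beside 14.2% of all promoters. TGANTCA, the AP-1 motif, occurred in 4 of 33 (Tnfrsf8, Tnfsf13, Tnfsf13b and Tnfsf14), beside 7.93%. The NF-κB consensus occurred in 2 of 33 (Tnfrsf8 and Traf3), beside 8.18%. These matches describe letters within the window and not bound sites. None of the 3 printed windows held a TATAAA, AP-1 or NF-κB match.

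The remaining receptors averaged less than 1 FPKM over the 6 hearts. Tnfrsf11b, which encodes osteoprotegerin, the soluble decoy of the RANK ligand, was measured at 1.11, 3.96 and 0.09 FPKM with Ang II and 0.02, 0.19 and 0.07 FPKM with Tec; it is named here after its values were seen. Ang II replicates 1 and 2 stood above the other hearts, whereas Ang II replicate 3 lay within the Tec range, and the gene reached the filter in 2 libraries and was not tested. Summed fibroblast markers placed the 6 hearts in the same order, at 825, 1059 and 209 FPKM with Ang II and 168, 289 and 197 FPKM with Tec, and their part in the Tnfrsf11b values was not tested. Tnfrsf13b, the TACI receptor of B cells, was measured at 0.35, 0.68 and 0.24 FPKM with Ang II and 0.17, 0.12 and 0.21 FPKM with Tec. Tnfrsf11a, the RANK receptor, was measured at 0.4, 0.42 and 0.28 FPKM with Ang II and 0.19, 0.26 and 0.21 FPKM with Tec. Both had no overlap between groups but lay under the filter. B cell markers summed to 0.49 to 0.54 FPKM with Ang II and to 0.31 to 0.75 FPKM with Tec, so the summed level of those markers overlapped between groups. Tnfrsf23, a decoy receptor of TRAIL, averaged 1.02 ± 0.699 and 0.517 ± 0.170 FPKM (SD, n = 3; limma adjusted p = 0.434), and Tnfrsf14, the receptor of LIGHT, averaged 0.553 ± 0.342 and 0.497 ± 0.101 FPKM (adjusted p = 0.911). The other 10 receptors, among them the TRAIL receptor Tnfrsf10b and the costimulatory receptors Tnfrsf4, Tnfrsf9 and Tnfrsf18, did not exceed 0.7 FPKM in any heart. Means were higher with Tec for Tnfrsf22, Tnfrsf4 and Tnfrsf8 and equal for Tnfrsf26.

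**Figure D3:**
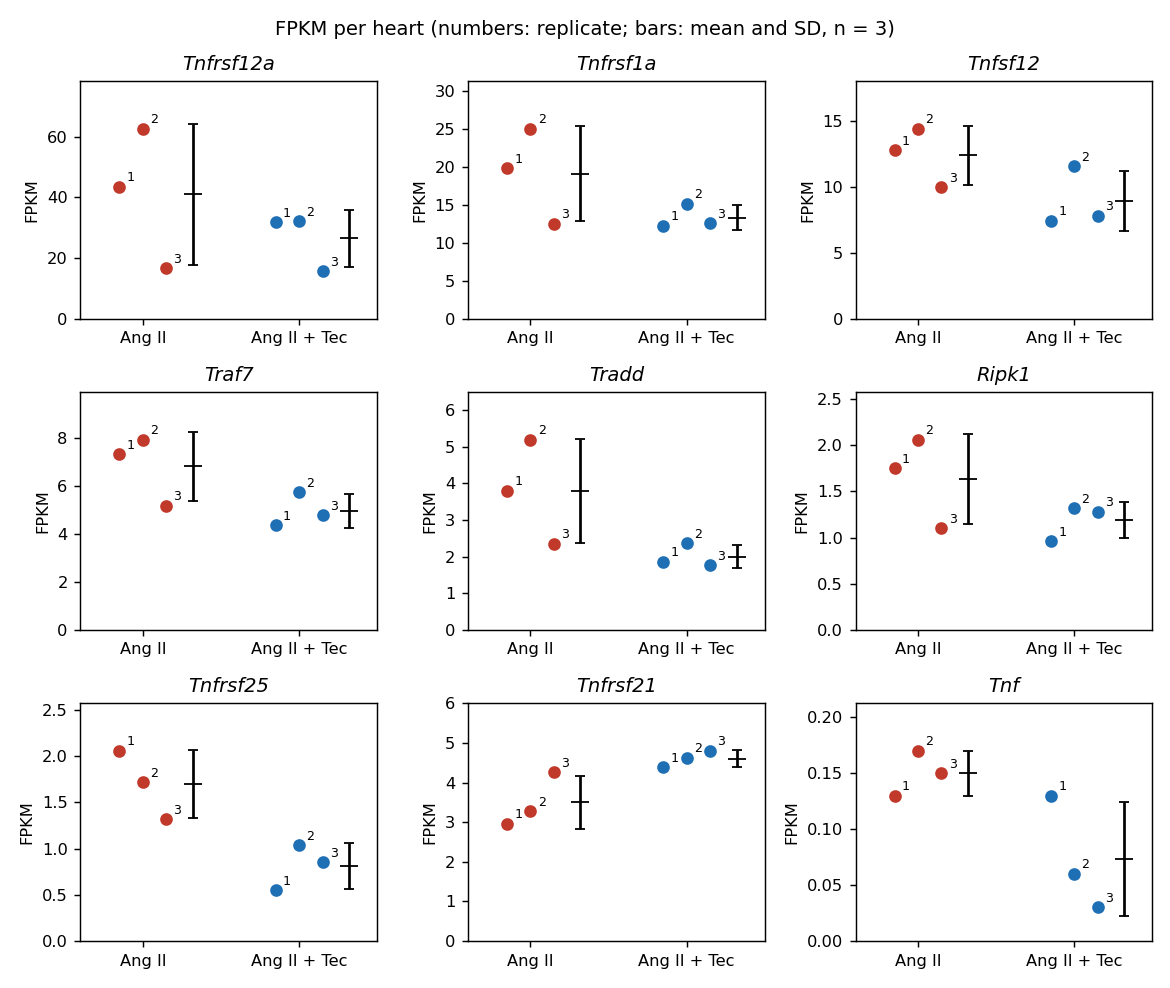
FPKM in each heart for 9 members, numbered by replicate, with the group mean and SD beside the points (n = 3; each axis starts at 0). The groups separate for Tnfrsf25 (lower with Tec) and Tnfrsf21 (higher with Tec), and in the panels of Tnfrsf12a, Tnfrsf1a, Tnfsf12, Traf7, Tradd and Ripk1 Ang II replicate 3 is the lowest Ang II heart.

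All 9 adaptors had lower mean FPKM with Tec, and 8 were tested. Tradd, the adaptor that binds the death domain of TNF receptor 1, had the lowest unadjusted p among them (chromosome 8, 105258286 to 105264609, minus strand). It was measured at 3.8, 5.19 and 2.35 FPKM with Ang II and 1.86, 2.36 and 1.77 FPKM with Tec. The groups met at their edge, with Ang II replicate 3 at 2.35 FPKM just under Ang II + Tec replicate 2 at 2.36 FPKM. The means were 3.78 ± 1.42 and 2.00 ± 0.318 FPKM (SD, n = 3), and the log2 fold change was -0.63 (SE 0.22, 95% interval -1.16 to -0.11, limma adjusted p = 0.232). It was -0.46 after median-of-ratios scaling.

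Traf7, an E3 ligase grouped here by its symbol, had the highest adaptor level. It was measured at 7.35, 7.95 and 5.19 FPKM with Ang II and 4.37, 5.76 and 4.8 FPKM with Tec. Its groups overlapped through Ang II replicate 3 and Ang II + Tec replicate 2 (log2 fold change -0.38, limma adjusted p = 0.283). The Traf7 locus shares bases with Rab26 on its own strand and with Caskin1 on the other strand. Ripk1, the kinase that follows Tradd in the TNF receptor 1 complex, was measured at 1.75, 2.06 and 1.1 FPKM with Ang II and 0.96, 1.32 and 1.28 FPKM with Tec. Ang II replicate 3 fell among the Tec hearts, and the log2 fold change was -0.26 (limma adjusted p = 0.387). Part of Ripk1 lies opposite Serpinb6a.

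The other TRAF adaptors lay between 0.525 and 2.21 FPKM on average, except Traf1, a TRAF induced in activated lymphocytes, which did not exceed 0.18 FPKM. Traf2 and Traf3, which control the canonical and the alternative NF-κB route at many receptors, had log2 fold changes of -0.28 and -0.31 (limma adjusted p = 0.366 and 0.389). Traf6, which also serves Toll-like and interleukin-1 receptors, had close group means of 1.40 and 1.37 FPKM, with a 95% interval of its log2 fold change from -0.32 to 0.27. Traf4 and Traf5 had values of -0.14 and -0.25. The signs of Traf4 and Traf6 did not hold under every rescaling of the libraries: Traf4 was 0.018 with quantile normalization, and Traf6 was 0.11 with median-of-ratios scaling and 0.14 with quantile normalization.

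The position of Ang II replicate 3 recurred across the family. In 12 of the 18 tested members Ang II replicates 1 and 2 both lay above all Tec hearts (66.7%, beside 53.7% of all tested genes), and in 11 of these 12 Ang II replicate 3 did not. Among all tested genes this was so for 4555 of 7023. It lay within or below the Tec range for 17 of 18 members (94.4%), beside 73.3% of all tested genes. The 17 include Tnfrsf21, where it lay below the Tec range together with the other Ang II hearts. Without this library 11 members had an adjusted limma p under 0.05, beside 28.8% of all genes. They were the receptors Tnfrsf12a, Tnfrsf1a, Tnfrsf1b, Tnfrsf21, Tnfrsf23 and Tnfrsf25 and the adaptors Tradd, Traf2, Traf3, Traf7 and Ripk1, and Tnfrsf21 alone among them was higher with Tec. Adjusted p ranged from 0.00771 for Tnfrsf1b to 0.0496 for Ripk1, and the median of the members was -0.49 beside -0.24 for all genes. In that fit 557 genes were called over the whole table (4.26%), and the labels give no reason to leave the library out. The library was singled out because its values lay among the Tec hearts, so a wider difference without it follows from that choice. With Ang II + Tec replicate 2 left out instead, 2 genes were called over the whole table and no member. For the gene and marker lists below, only the fit without Ang II replicate 3 is given.

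Macrophage and fibroblast markers were lower with Tec on average, the direction of most members. Macrophage markers summed to 272, 427 and 211 FPKM with Ang II and to 156, 150 and 164 FPKM with Tec. The mean was lower for 9 of 9 markers, 8 of them at an unadjusted p under 0.05, with a median log2 fold change of -0.68. The 8 fibroblast markers were all lower on average, 4 of them at an unadjusted p under 0.05, with a median of -1.29. Among all tested genes 80% were lower, and 16.5% were lower with such a p. After median-of-ratios scaling 8 of 9 macrophage and 8 of 8 fibroblast markers were lower, beside 49.6% of all genes. Of these, 5 and 4 had an unadjusted p under 0.05, beside 8.2% of all genes in this direction. Of 7 endothelial markers 6 were lower (median -0.16), while 4 of 7 cardiomyocyte markers were higher (median 0.13). The 4 tested atrial cardiomyocyte markers were all lower, with the most negative median (-1.82). Their groups overlapped, and 0 had an unadjusted limma p under 0.05. Smooth muscle and pericyte markers had a median of -0.18. The 3 tested mesothelial and 2 tested adipocyte markers were higher, with medians of 0.19 and 0.42. No marker of these lists was called. Without Ang II replicate 3, 5 of 9 macrophage and 6 of 8 fibroblast markers were called, beside 4.26% of all genes, and 8 of each list had an adjusted limma p under 0.05, beside 28.8%. The part of cell makeup in the members' values was not tested.

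Among family genes with other symbols, none of those tested had separate groups. Of 15 listed, 14 were in the table and 6 were tested (Ltbr, Cd40, Fas, Eda, Eda2r and Relt). All 6 had lower means with Tec, their median log2 fold change was -0.12, and 0 had an unadjusted limma p under 0.05. Of these, Ltbr alone had an adjusted p under 0.05 without Ang II replicate 3. Ltbr, the lymphotoxin β receptor, was measured at 12.99, 13.3 and 9.23 FPKM with Ang II and 8.05, 10.38 and 8.05 FPKM with Tec (limma adjusted p = 0.282). Fas, the death receptor of Fas ligand, had means of 8.25 ± 0.900 and 7.94 ± 0.759 FPKM (SD, n = 3; log2 fold change -0.05). Cd40lg was listed at 0 in every library.

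Downstream of the receptors, genes of the death arm and of the NF-κB arm had different counts. In the death arm, which holds apoptosis and necroptosis genes, 13 of 14 genes were tested and 12 were lower with Tec. Of these, 7 had an unadjusted p under 0.05 and 9 had no overlap between groups, beside 16.5% and 18.9% of all tested genes. No gene of the arm was called, and the median log2 fold change was -0.32. After median-of-ratios scaling 8 of 13 were lower, 5 of them at an unadjusted p under 0.05, beside 8.2% of all genes. Without Ang II replicate 3, 7 of 13 had an adjusted limma p under 0.05, beside 28.8% of all genes, and none was called. Mlkl, Casp8, Bax, Fadd and Ripk3 were among the 7 genes.

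Mlkl, the membrane-permeabilizing effector of necroptosis, had the lowest unadjusted p of the arm. It was measured at 1.76, 2.34 and 1.18 FPKM with Ang II and 0.72, 0.65 and 0.81 FPKM with Tec (log2 fold change -0.66, limma adjusted p = 0.201). Casp8, the initiator caspase recruited by Fadd, was measured at 2.79, 3.68 and 1.75 FPKM with Ang II and 1.62, 1.29 and 1.18 FPKM with Tec (log2 fold change -0.63, limma adjusted p = 0.223). Every Tec heart lay below every Ang II heart for both genes. Fadd, the adaptor between death receptors and Casp8, was measured at 3.77, 3.76 and 2.49 FPKM with Ang II and 1.73, 2.29 and 2.28 FPKM with Tec (log2 fold change -0.48, limma adjusted p = 0.229). Ripk3, the kinase that acts on Mlkl, had a log2 fold change of -0.44. The pore-forming Bax had a log2 fold change of -0.61. In each of these named genes the groups were separate, Ang II replicate 3 included. Bcl2l1, which encodes the survival protein Bcl-xL, was the single tested gene of the arm with a higher mean in Tec (log2 fold change 0.15, limma adjusted p = 0.644).

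In the NF-κB arm, with the kinases, ubiquitin enzymes and Rel proteins, 28 of 30 genes were tested, 25 were lower and 1 had an unadjusted p under 0.05, beside 16.5% of all genes in this direction. That gene, Tnip1, which encodes an inhibitor of NF-κB signaling that binds A20, was measured at 13.46, 12.8 and 7.04 FPKM with Ang II and 6.1, 8.73 and 5.29 FPKM with Tec (log2 fold change -0.63, limma adjusted p = 0.265). The median of the arm was -0.12, less negative than that of all genes, and after median-of-ratios scaling it was 0.02 with 13 of 28 lower. Under that scaling Tnip1 no longer had an unadjusted p under 0.05, and Nfkbia had one with a higher level in Tec. Without Ang II replicate 3, 6 of the 28 had an adjusted limma p under 0.05, beside 28.8% of all genes, and none was called. Rela, the main transactivating subunit, had a log2 fold change of -0.12.

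Of 26 genes known to be induced by NF-κB, 16 were tested, 14 were lower and 4 had an unadjusted p under 0.05, with a median of -0.29, beside 16.5% of all genes with such a p and a lower level. After median-of-ratios scaling the median was -0.14, and 2 genes were lower and 1 higher at an unadjusted p under 0.05, beside 8.2% and 7.36% of all genes. Leaving out Ang II replicate 3 gave 11 of 16 genes with an adjusted limma p under 0.05, beside 28.8% of all genes. In that fit 3 of the 16 were called, beside 4.26% of all genes. Some of the 26 genes, such as Nfkbia, also belong to the arm above. Csf1, the macrophage growth factor, was measured at 11.65, 12.14 and 8.62 FPKM with Ang II and 5.85, 7.02 and 5.92 FPKM with Tec, with no overlap (log2 fold change -0.69, limma adjusted p = 0.185). Tnfaip2 had a log2 fold change of -0.46, and the monocyte chemokines Ccl2 and Ccl7 had -0.75 and -0.91 (limma adjusted p = 0.209, 0.256 and 0.247). Nfkbia, the NF-κB inhibitor that the factor itself induces, had a higher mean with Tec at 27.1 ± 5.45 against 23.0 ± 1.65 FPKM (SD, n = 3; log2 fold change 0.21, limma adjusted p = 0.453), and Sod2 differed by 0.02.

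**Figure D4:**
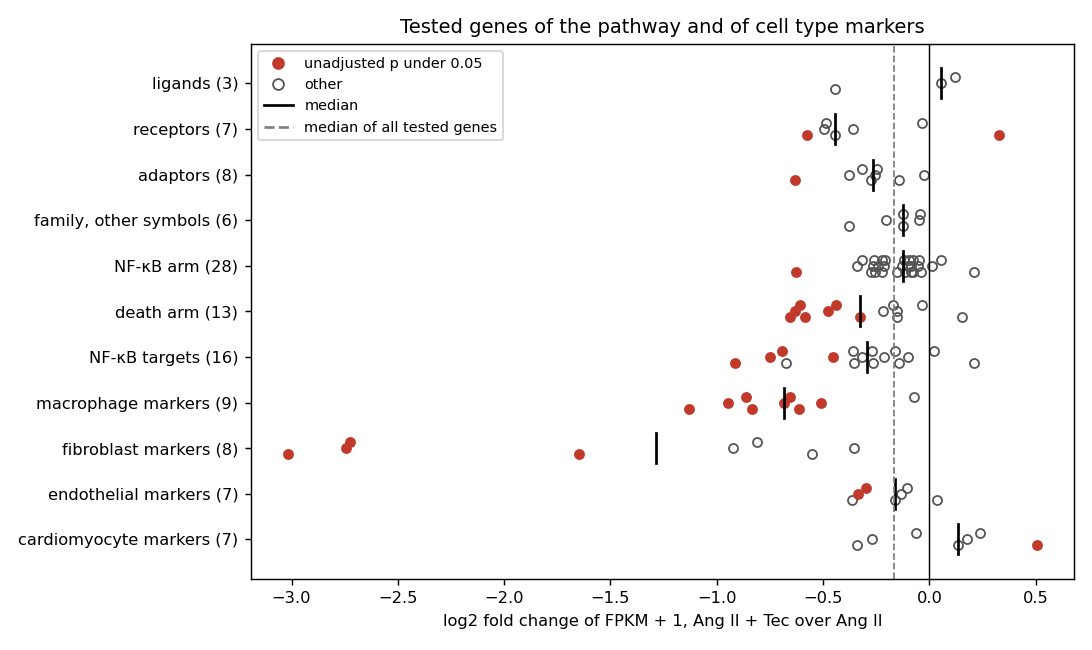
Log2 fold change of FPKM + 1, Ang II + Tec over Ang II, for each tested gene of the members by role, of 4 pathway lists and of 4 cell type marker lists (number of tested genes in brackets); filled points have an unadjusted limma p under 0.05 and black bars are medians. The dashed line is the median of all tested genes at -0.17. The death arm has 7 filled points and the NF-κB arm 1. Of the lists shown, the fibroblast and macrophage markers reach the most negative values. Atrial cardiomyocyte markers are not shown.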

How the data were processed

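Poly(A) RNA of 6 mouse hearts (3 Ang II, 3 Ang II + Tec) had been sequenced by the authors, who trimmed the reads with Cutadapt. The submitters' processing notes name HISAT2 2.0, StringTie 1.3.0, Bowtie 0.12.2 and build mm8, with no role or order. The labels and the study's methods name different Illumina instruments. Gene coordinates in the deposited table equal those of GENCODE M21 (GRCm38) for 34 of the 41 members, so coordinates are given as GRCm38. The deposited values are FPKM per gene, computed by the authors. No read counts were used, and no counting interval was given: the study's methods state 1 nominal depth for the transcriptome as a whole, and the FPKM do not give the depth of each library; 20998 to 22385 genes were above 0 per library. Whether the counting used strand is not given in the sources used here. Libraries were grouped by their GEO titles, which number separate hearts.

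Values were tested as log2(FPKM + 1) with limma 3.58.1 in R 4.3.3 (empirical Bayes with a variance trend) on genes with at least 0.5 FPKM in 3 of 6 libraries, with Benjamini-Hochberg adjustment over all 13089 genes. The script was tested on simulated data. Members, gene lists and marker lists were chosen with earlier results of these data known, and no test was run over a list. Values per heart are given for members with an unadjusted p under 0.05 or no overlap, the 6 most abundant members, and Tnf, Tnfsf14, Tnfrsf1a, Tradd and Ripk1; from the gene lists, up to 8 genes each with an unadjusted p under 0.05 are named (some are not reported here), and any other gene was named after its values were seen. Promoters came from RefSeq (GRCm38.p6). Alternatives were other pseudocounts, filters, scalings, a replicate block, library weights, no variance trend and leaving out each library; the summed Tnfsf12 locus was added after seeing the data.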

Additional observations from a re-analysis of the deposited data

How the results depend on the processing

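The number of called genes over the whole table was 21, 3 without the filter, 522 with library weights and 2 to 557 when 1 library was left out (highest without Ang II replicate 3). The number of members with an unadjusted limma p under 0.05 was 3, 5 without the filter, 9 with the replicate block, 13 with library weights, and 1 to 13 when 1 library was left out. No member was called, except Tnfrsf12a without Ang II replicate 3, a range of 0 to 1. In that fit 4.26% of all tested genes were called. The members with lower means numbered 15, 34 without the filter (of 41 genes) and 13 to 16 when 1 library was left out. Their median log2 fold change of -0.30 was -0.073 without the filter and -0.49 to -0.16 when 1 library was left out.

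The replicate numbers were not used to pair hearts. Deviations of equally numbered hearts correlated at -0.039, 0.43 and 0.38 for numbers 1, 2 and 3, and Ang II replicate 1 correlated best with Ang II + Tec replicate 2, so not every heart matched its own number. The block called 22 genes and no member.

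The values of single members under 15 alternatives, with the summed Tnfsf12 locus added, numbered 267. Of these, 254 kept their sign and side of the threshold, and 5 members changed sign somewhere. Tnfrsf14 was 0.053 with median-of-ratios scaling and 0.095 with quantile normalization, Traf6 was 0.11 and 0.14, and Traf4 was 0.018 with the latter. When 1 library was left out, Tnfrsf14 ranged from -0.16 to 0.14, Traf6 from -0.14 to 0.041, Traf4 from -0.29 to 0.011, Tnfsf10 from -0.0083 to 0.085 and Tnfsf13 from -0.0056 to 0.21. The cause was not tested. The FPKM carry no depth, so values under 0.5 FPKM, including Tnf and Tnfsf14, have unknown counting error and were described only.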
